A study of Mus musculus with 6 samples.

Results

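The cytochrome oxidase subunit isoforms described here are 10 nuclear genes, Cox6a1, Cox6a2, Cox4i1, Cox4i2, Cox7a1, Cox7a2, Cox8a, Cox8b, Cox6b1 and Cox6c. They were read by 17 of the 45037 non-control probe sets of an Affymetrix mouse expression array, and they are 10 of the 18193 genes with a probe set of their own. Members were selected by gene symbol, and every probe set annotated with exactly 1 of these symbols was kept. The family was chosen from earlier results on the same arrays in which Cox6a2 was lower in Tead1KO islets. All differences between the groups in these 10 genes are therefore given as descriptions. The limma fits over all genes and all probe sets include them, but a pass by a member is no independent support.

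The samples, on 1 array each, were islets of 12-week-old male C57Bl6 mice, with 3 arrays labelled Tead1KO (Tead1 beta cell-specific KO) and 3 arrays labelled Flox. Tead1 is a transcription factor through which the Hippo pathway acts on its target genes. Tead1 itself was read by 2 probe sets, whose groups overlapped: the brighter one had 6.72, 7.49 and 5.95 (log2 signal) in Tead1KO arrays and 7.22, 6.99 and 7.40 in Flox arrays (difference -0.49, SE 0.36, adjusted p = 0.871 by limma over all probe sets). The arrays therefore do not show the knockout at the level of this transcript, and the labels do not say which exons were removed. Markers of islet cells were present, with 9 of 9 measured beta cell markers and 6 of 6 measured alpha, delta and PP cell markers above background. The labels name no Cre driver and do not tie arrays to single animals, so a Cre effect cannot be told apart from the loss of Tead1, and the spread between arrays may be technical. The RNA is that of whole islets, so fewer cells of a type and less RNA per cell cannot be told apart.

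Cytochrome oxidase, or complex IV, is the last enzyme of the mitochondrial respiratory chain. It passes electrons from cytochrome c to oxygen and pumps protons across the inner membrane. Its catalytic core is encoded by mitochondrial DNA, and nuclear genes encode the smaller subunits around it. Several of these exist as a ubiquitous isoform and a tissue-restricted one. Cox6a2, Cox7a1 and Cox8b are the isoforms typical of heart and skeletal muscle, and Cox6a1, Cox7a2 and Cox8a are their ubiquitous partners. Cox4i2 is the second isoform of the subunit that Cox4i1 encodes, known from lung and from cells at low oxygen. In beta cells, ATP made by the respiratory chain closes potassium channels and so couples glucose to insulin release.

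RefSeq promoter sequences (GRCm38.p6) were matched for 6 of the 10 members, namely Cox6a1, Cox6b1, Cox7a1, Cox7a2, Cox8a and Cox8b. The 250 bases before the annotated start are shown for a bright ubiquitous member, Cox6a1, and for a dim muscle-type member, Cox8b, because the contrast between these kinds of isoform is what the values below describe. Capitals mark motif matches on either strand.
Cox6a1 (chr5:115348959-115349208, minus strand): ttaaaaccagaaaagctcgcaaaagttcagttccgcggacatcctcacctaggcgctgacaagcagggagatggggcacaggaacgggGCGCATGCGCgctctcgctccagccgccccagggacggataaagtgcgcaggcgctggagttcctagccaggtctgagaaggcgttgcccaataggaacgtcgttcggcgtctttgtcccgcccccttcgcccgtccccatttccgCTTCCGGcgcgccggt
Cox8b (chr7:140900447-140900696, minus strand): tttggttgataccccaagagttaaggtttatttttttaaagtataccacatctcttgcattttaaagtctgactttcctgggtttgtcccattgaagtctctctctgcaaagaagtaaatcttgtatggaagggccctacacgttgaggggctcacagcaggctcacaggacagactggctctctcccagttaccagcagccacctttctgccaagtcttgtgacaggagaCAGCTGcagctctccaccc
Searched were CCGGAAG, the core of sites for ETS factors such as GABP, and CATGCGC, part of the NRF-1 site. GABP and NRF-1 are known regulators of nuclear respiratory chain genes. Also searched were TATAAA, the E-box CANNTG bound by factors such as MyoD, and GGAATG, the MCAT element bound by TEAD factors. The ETS core was found in Cox6a1 and Cox6b1, and in 6.91% of all 32851 promoters of the table. The NRF-1 letters were found in Cox6a1, as 2 matches that overlap on opposite strands, and in 3.24% of all promoters. E-box letters were found in Cox6b1, Cox7a1, Cox7a2, Cox8a and Cox8b, and in 66.2% of all promoters. TATAAA and GGAATG were in none of these 6 windows, against 12.4% and 12.6% of all promoters. At such shares little can be read from their absence in 6 windows. No promoter was matched for Cox6a2, so these motifs say nothing about that gene. A match is a description of these letters and not a binding site.

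Cox6a2, the muscle-type form of subunit 6a, was the member with the largest difference. On the log2 scale, the signal of its brightest probe set in replicates 1, 2 and 3 was 9.13, 9.40 and 9.01 for Tead1KO and 10.51, 11.30 and 10.86 for Flox. Every Tead1KO array lay below every Flox array, and the gap between the groups was wider than either group's range. The means were 9.18 ± 0.20 in Tead1KO and 10.89 ± 0.40 in Flox (SD, n = 3 each). The difference was -1.71 (SE 0.23), which is 3.27-fold lower on the linear scale. The second, dimmer probe set read 4.51, 5.50 and 5.01 in Tead1KO and 6.16, 7.54 and 7.13 in Flox. Here too the groups did not overlap, with a difference of -1.93 (SE 0.38). This probe set carries the suffix of those that can match several transcripts. As a measure of background, 27 bacterial control probe sets without an added target read between 2.87 and 4.70, and 1 Tead1KO array of the dimmer probe set lay within that range. The 6 arrays varied together on both probe sets of Cox6a2 (Pearson r = 0.967, and 0.876 for the deviations from the group means). Within each group replicate 2 was the highest array on both.

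Across all genes, 94 of 18193 passed a limma test at an adjusted p under 0.05, 0.517% in either direction and 0.181% with lower signal in Tead1KO. The balance of directions turned with single arrays: 33 of 94 genes were lower in Tead1KO with all arrays, 212 of 303 without Tead1KO replicate 2 and 0 of 12 without Tead1KO replicate 1. Of the 10 members, 1 was among the 94 that passed with all arrays, Cox6a2. Nothing is read from this count, since that difference drew attention to the family. In the fit over all probe sets 0.18% passed, and the brighter probe set of Cox6a2 was the only one of the 17 that did. For the same reason nothing is read from that. In total 4 of the 17 member probe sets had all Tead1KO arrays below all Flox arrays, against 5.16% of all probe sets, and 0 had them above, against 5.36%. These 4 were both probe sets of Cox6a2 and a dimmer probe set each of Cox6a1 and Cox6c. The difference of Cox6a2 lay between -1.90 and -1.50 when single arrays were left out. Cox6a2 was no longer among the genes that passed without Tead1KO replicate 1 or without any 1 of the Flox arrays, where 12 to 20 genes passed in all, nor when the probe sets of a gene were averaged.

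**Figure D1:**
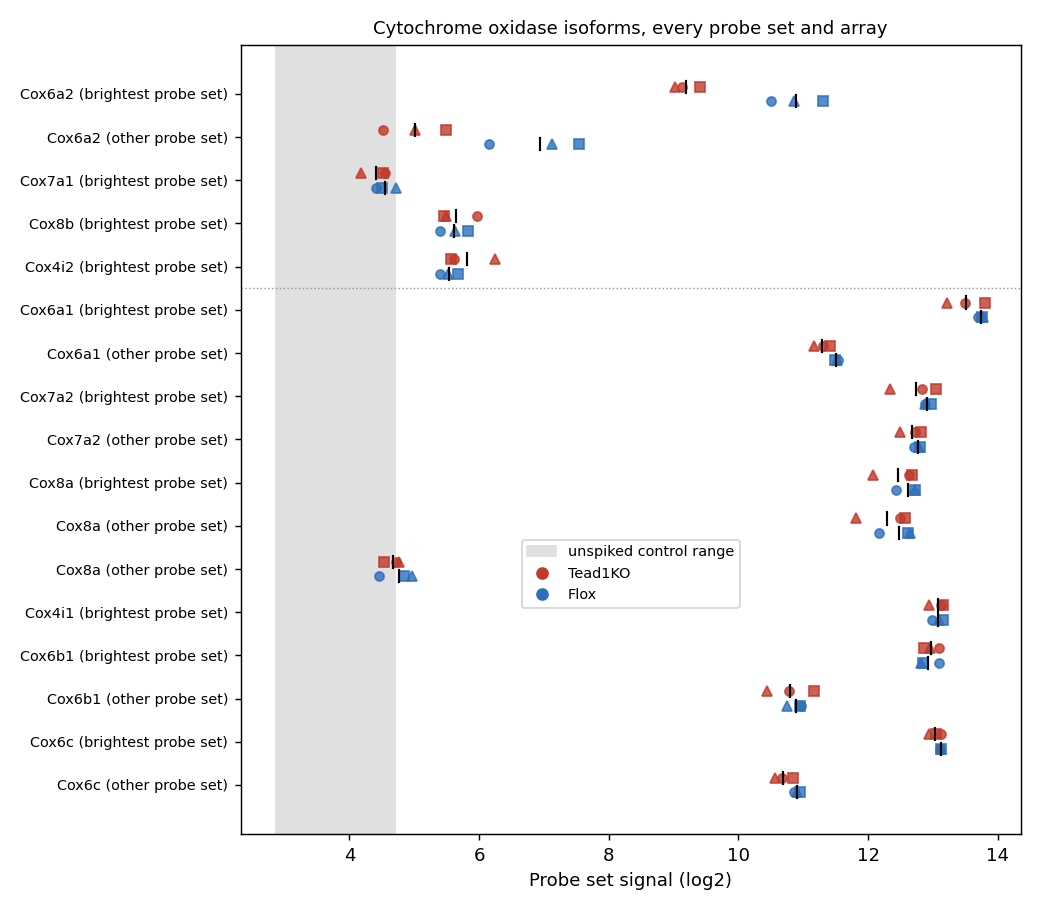
Log2 signal (x axis) of all 17 probe sets of the 10 members (rows, muscle-type and second isoforms above the dotted line); points are single arrays (red Tead1KO, blue Flox; circle, square and triangle for replicates 1, 2 and 3), ticks mark the mean of each group, and grey shows the unspiked control range, 2.87 to 4.70. Both Cox6a2 rows separate the groups, and the rows of Cox7a1, Cox8b and Cox4i2 overlap in or just above the grey range.

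The other restricted isoforms were dim in both groups, so close to background that a fall as large as that of Cox6a2 could not have been seen in full. Cox8b, the muscle-type form of subunit 8, read 5.97, 5.46 and 5.50 in Tead1KO and 5.40, 5.83 and 5.63 in Flox. The groups overlapped fully, and the difference was 0.03 (SE 0.20). Cox7a1, the muscle-type form of subunit 7a, read 4.54, 4.52 and 4.17 in Tead1KO and 4.41, 4.50 and 4.73 in Flox. Both group means lay within the unspiked control range, and the difference was -0.13 (SE 0.16). Cox4i2 read 5.61, 5.56 and 6.25 in Tead1KO and 5.40, 5.67 and 5.52 in Flox, a difference of 0.28 (SE 0.22). The higher Tead1KO mean of Cox4i2 rests on replicate 3, the other Tead1KO arrays lying within the Flox range. Each of Cox8b, Cox7a1 and Cox4i2 was read by a single probe set.

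The ubiquitous isoforms were bright in every array, and their differences were small beside that of Cox6a2. Leaving aside a dim further probe set of Cox8a (4.67 in Tead1KO and 4.76 in Flox), the other 11 probe sets of the 6 ubiquitous members read between 10.44 and 13.80. Their differences lay between -0.23 (SE 0.15) for the brightest probe set of Cox6a1 and 0.05 (SE 0.13) for the brightest of Cox6b1, with 10 of 11 below 0. Cox6a1, the ubiquitous partner of Cox6a2, read 13.50, 13.80 and 13.22 in Tead1KO and 13.69, 13.75 and 13.77 in Flox. The Tead1KO arrays spread to both sides of the Flox arrays. Its dimmer probe set read 11.30, 11.41 and 11.16 in Tead1KO and 11.53, 11.49 and 11.52 in Flox, with no overlap and a difference of -0.22 (SE 0.13). Cox6c, a subunit with no tissue isoform, differed by -0.08 at its brightest probe set and by -0.21 (SE 0.14) at the dimmer one. At that dimmer probe set all Tead1KO arrays, 10.56 to 10.84, lay below the Flox arrays, 10.85 to 10.94. Cox4i1, the ubiquitous form of subunit 4, averaged 13.07 ± 0.11 in Tead1KO and 13.08 ± 0.08 in Flox (SD, n = 3 each). Cox7a2 and Cox8a, the partners of Cox7a1 and Cox8b, differed by -0.17 (SE 0.18) and -0.17 (SE 0.19) at their brightest probe sets, with overlapping groups.

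The small shift of the ubiquitous members below 0 rested largely on Tead1KO replicate 3. Only at the dimmer probe sets of Cox6a1 and Cox6c did Tead1KO replicates 1 and 2 also lie below every Flox array. This array was the lowest of the 6 for 10 of the 11 bright probe sets. The mean deviation of the 6 genes from their Flox means was -0.02, 0.03 and -0.32 in Tead1KO replicates 1 to 3, and between -0.03 and 0.03 in the Flox arrays. Tead1KO replicate 3 also stood apart over the whole array, with the highest hybridization controls (13.23, against 10.60 to 12.09 in the other arrays) and the narrowest interquartile range of all probe sets (2.65, against 2.99 to 3.32). Without it, the differences of the 11 probe sets lay between -0.15 and 0.08, with 4 of 11 below 0, and the change of Cox4i2 minus Cox4i1 was -0.00. Without Tead1KO replicate 2 in its place, the 11 lay between -0.38 and 0.10. The shift also depended on the scaling. With quantile normalization 6 of 11 lay below 0, with the hybridization controls as a covariate 5 of 11, and with median centring 11 of 11. Cox6a2 differed by -1.62 without Tead1KO replicate 3.

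**Figure D2:**
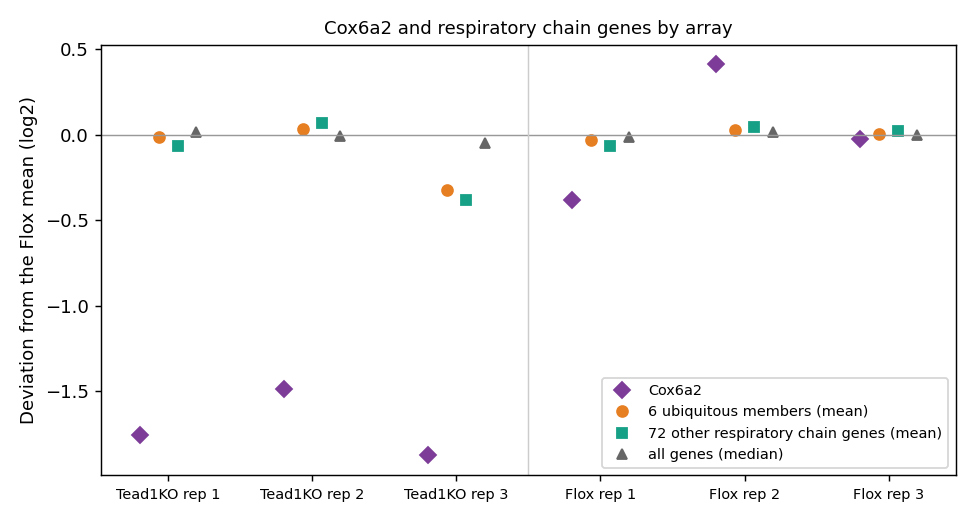
Deviation from the Flox mean (log2, y axis) on each array (x axis) for Cox6a2 (diamonds), the mean of the 6 ubiquitous members (circles), the mean of 72 other respiratory chain genes (squares) and the median of all genes (triangles). Cox6a2 is low in all 3 Tead1KO arrays, whereas both respiratory chain means are lowest in Tead1KO replicate 3, at -0.32 and -0.38, and between -0.07 and 0.07 in the other arrays.

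Within each array, the signal of a muscle-type isoform was set against that of its ubiquitous partner. Since probe sets differ in brightness, only the change of this quantity between the groups can be read. Cox6a2 minus Cox6a1 was -4.36, -4.40 and -4.20 in Tead1KO and -3.18, -2.45 and -2.91 in Flox. The groups were clear of each other, and the change of the mean, Tead1KO minus Flox, was -1.47 (log2). Cox7a1 minus Cox7a2 averaged -8.33 ± 0.19 in Tead1KO and -8.37 ± 0.18 in Flox, a change of 0.04. Cox8b minus Cox8a averaged -6.81 ± 0.35 in Tead1KO and -7.00 ± 0.11 in Flox, a change of 0.19. Cox4i2 minus Cox4i1 averaged -7.26 ± 0.50 in Tead1KO and -7.55 ± 0.06 in Flox (SD, n = 3 each for all pairs), a change of 0.29. For the last 3 pairs the arrays of the groups overlapped, and the partner with restricted expression was close to background. Among the pairs, only subunit 6a had a restricted isoform with a signal well above the unspiked controls in both groups.

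**Figure D3:**
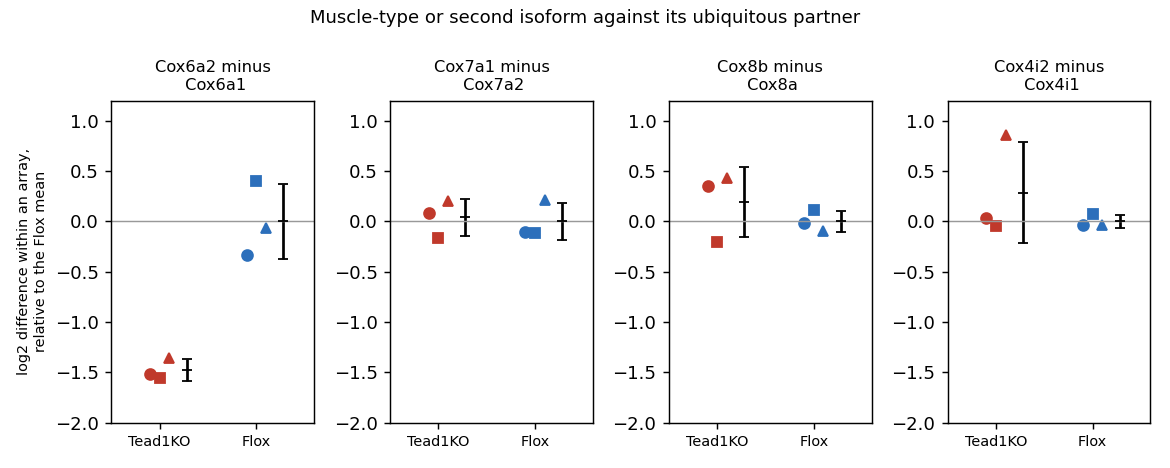
Within-array log2 difference between an isoform and its ubiquitous partner (y axis, shifted so that the Flox mean is 0) in Tead1KO (red, left) and Flox (blue, right); symbols are replicates and bars are means with SD (n = 3). The Tead1KO arrays of Cox6a2 minus Cox6a1 lie near -1.47, and the other pairs overlap.

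The rest of cytochrome oxidase and of the respiratory chain was compared with the same limma fit over 18193 genes. Of 8 other measured cytochrome oxidase subunits, 0 passed (0 at an unadjusted p under 0.05), with a median difference of -0.01 and a range of -0.17 to 0.21. Those with the smallest p were Cox7c (0.16, adjusted p = 0.791), the testis isoform Cox8c (0.21, adjusted p = 0.793, but -0.17 without _x_at and _s_at probe sets and 0.02 with its probe sets averaged) and Cox5a (-0.17, adjusted p = 0.854). Cox7c read close to background on this array, and a probe set without the _s_at suffix gave 0.06. Cox5a turned to 0.062 without Tead1KO replicate 3, was -0.42 without Tead1KO replicate 2 and -0.49 with its probe sets averaged. Of 24 measured assembly factors, which insert copper and heme or help to build the enzyme, 0 passed (0 at an unadjusted p under 0.05). Their median was -0.10, with a range of -0.59 to 0.32. Complex I, which oxidises NADH, had 33 measured subunits, of which 0 passed (1 at an unadjusted p under 0.05), and a median of -0.12. Its member with the smallest p was Ndufv3 (-0.27, SE 0.12, adjusted p = 0.668, and -0.18 without Tead1KO replicate 3). Complex II, also known as succinate dehydrogenase, had 0 of 4 (0 at an unadjusted p under 0.05) and a median of -0.20. Complex III with cytochrome c had 0 of 11 (0 at an unadjusted p under 0.05) and a median of -0.07. Of 16 genes of the ATP synthase and its inhibitor 0 passed (1 at an unadjusted p under 0.05), and the median was -0.10. In that list Atp5g1, which encodes subunit c of the proton-carrying ring, had the smallest p (-0.56, SE 0.16, adjusted p = 0.322). Its Tead1KO arrays lay between 9.91 and 10.36, below the Flox arrays at 10.71 to 10.77, but the difference was -0.15 with its probe sets averaged.

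Over these 72 respiratory chain genes outside the 10 members, 0 passed and 2 had an unadjusted p under 0.05. The median difference was -0.10, against -0.01 for all genes, and 13 of 72 lay above 0, against 48.9% of all genes. The size of this shift depended on single arrays and on the scaling. The mean deviation of the 72 genes from Flox was -0.07, 0.07 and -0.38 in Tead1KO replicates 1 to 3. Without replicate 3 the median was 0.01, with 40 of 72 above 0. With quantile normalization it was 0.00, with 38 of 72 above 0. With the hybridization controls as a covariate it was 0.03, with 40 of 72 above 0. It was larger without Tead1KO replicate 2 (-0.18, with 12 of 72 above 0), without Tead1KO replicate 1 (-0.14, with 15 of 72) and with median centring (-0.17, with 7 of 72). Leaving out single Flox arrays gave -0.12 to -0.08. No gene of the 72 passed under any of these alternatives. With all arrays as deposited, the largest difference in either direction among the 72 was -0.59, against -1.71 for Cox6a2.

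**Figure D4:**
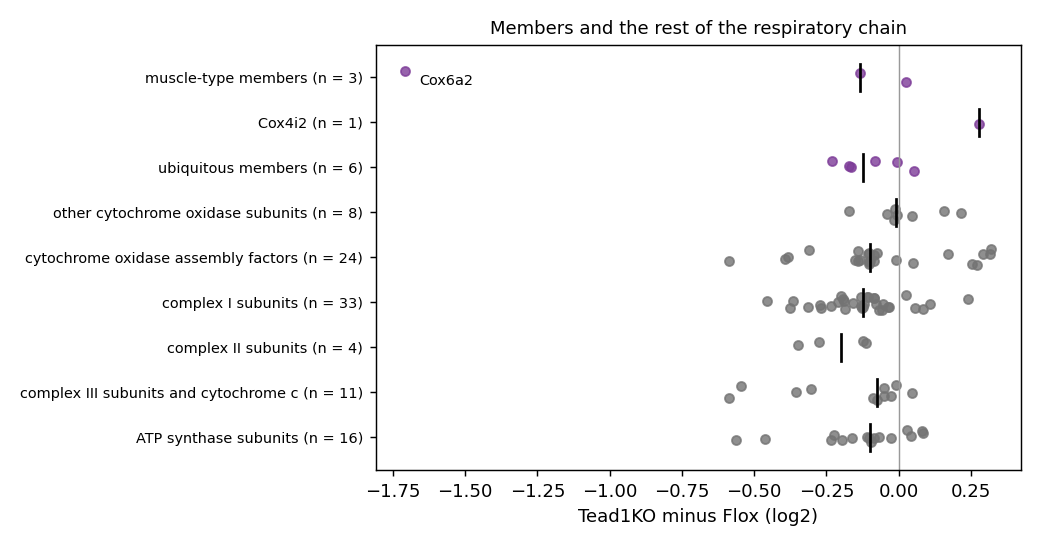
Tead1KO minus Flox difference (log2, x axis) of each gene at its brightest probe set, with the members in purple, other respiratory chain lists in grey and medians as black ticks. Cox6a2 lies at -1.71, outside the range of all other genes plotted, which runs from -0.59 to 0.32.

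Cox6a2 is best known from striated muscle, and markers of other cells were therefore read beside it. Of 27 striated muscle markers 0 passed in either direction (2 at an unadjusted p under 0.05), and 11 lay within the unspiked control range in both groups, among them Myh2, Myh4, Myh7, Actc1, Myl2 and Tnnt3. Their summed linear signal ranged from 787 to 871 in Tead1KO and from 796 to 871 in Flox. Those with the smallest p were Neb, the giant thin filament protein nebulin (0.72, adjusted p = 0.219), within background in both groups, and Casq2, a calcium-binding protein of the sarcoplasmic reticulum (-0.54, adjusted p = 0.40). The summed signal of the muscle markers overlapped between the groups, but 11 of the 27 lay within background and others close to it. Such a sum can show little of a change in muscle cells. Cox7a1 and Cox8b are also known from brown fat. Of 8 measured adipocyte markers 0 passed (3 at an unadjusted p under 0.05), and Adipoq and Cidea lay within background in both groups. Their sum was 646 to 696 in Tead1KO and 733 to 903 in Flox, with no overlap, although 6 of 8 lay above 0 and the median difference was 0.16. Pparg, a nuclear receptor of fat cells, differed by -1.04 (adjusted p = 0.068), and Fabp4, a fatty acid carrier, differed by 0.49 (adjusted p = 0.653, and 0.33 with its probe sets averaged). Pparg was the brightest of the 8 in Flox, at 8.81 to 9.13 against 7.73 to 8.11 in Tead1KO, and weighs most in the Flox sums. The lower sum in Tead1KO thus rests on Pparg and is no fall of adipocyte markers as a group. Pparg passed with quantile normalization (adjusted p = 0.036), with the hybridization control covariate (0.028), without Tead1KO replicate 2 (0.040) and without Tead1KO replicate 3 (0.0495). It did not pass with median centring (adjusted p = 0.137) or without Tead1KO replicate 1 (0.274). With the hybridization control covariate Neb passed as well (adjusted p = 0.029).

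Markers of islet and neighbouring cells were read in the same way, and with all arrays as deposited 0 genes passed in any of these lists. Of 9 beta cell markers 0 passed (5 at an unadjusted p under 0.05), 8 of 9 lay below 0, and all 9 were above the unspiked range. Their median was -0.66, and their sum was 113673 to 133776 in Tead1KO and 130945 to 136909 in Flox. Ins2 and Iapp, the brightest of them, weigh most in that sum and differed by -0.005 and 0.03. Such a sum can show little of a change in a dimmer beta cell marker. The 3 with the smallest p were Ucn3, urocortin 3, secreted by beta cells (-0.95, adjusted p = 0.056), Nkx6-1, a beta cell transcription factor (-0.95, adjusted p = 0.064) and Slc2a2, the glucose transporter GLUT2 (-0.82, adjusted p = 0.194). All 3 passed with quantile normalization (adjusted p = 0.013, 0.030 and 0.043), with the hybridization control covariate (0.0065, 0.024 and 0.043) and without Tead1KO replicate 2 (0.027, 0.025 and 0.019). Ucn3 also passed without dim probe sets (adjusted p = 0.048). With median centring none of them passed (adjusted p from 0.134 for Ucn3 to 0.360 for Slc2a2). The same held without Tead1KO replicate 1 (from 0.311 for Ucn3 to 0.706 for Slc2a2). They also did not pass without Tead1KO replicate 3 or without any 1 of the Flox arrays. Nor did they pass with no trend, with a robust prior or with averaged probe sets. Of 13 markers of mural cells, the contractile cells around vessels, 0 passed (4 at an unadjusted p under 0.05). Their sum, 1900 to 2669 in Tead1KO and 2827 to 3310 in Flox, did not overlap between the groups, although 5 of 13 lay above 0 and the median difference was -0.10. Rgs5, the brightest of them, weighs most in that sum. It differed by -0.62 (adjusted p = 0.654), with overlapping groups. Myh11, a smooth muscle myosin, differed by -0.86 (adjusted p = 0.169), and passed without Tead1KO replicate 2 (adjusted p = 0.042), but read -0.45 with its probe sets averaged. Acta2, smooth muscle actin, differed by -0.99 (adjusted p = 0.294) at an _s_at probe set, by -0.24 with its probe sets averaged and by 0.15 without _x_at and _s_at probe sets. Kcnj8, a channel of pericytes, differed by 0.62 (adjusted p = 0.467). The sums of 6 alpha, delta and PP cell markers were 89106 to 97608 in Tead1KO and 88767 to 97110 in Flox. Those of 8 acinar markers were 46564 to 163904 in Tead1KO and 44195 to 172386 in Flox. In each group replicate 1 was the lowest array for every acinar marker. Cel, for example, read 10.90 in Tead1KO and 10.70 in Flox there, against 12.51 to 13.88 in the other arrays. Acinar signal thus varied between arrays within both groups. The sums of 7 endothelial markers were 5282 to 5567 in Tead1KO and 5147 to 5358 in Flox. Those of 7 macrophage markers were 2521 to 6228 in Tead1KO and 2188 to 3423 in Flox, with C1qa, a complement subunit, at 1.08 (adjusted p = 0.518, but 1.65 with an adjusted p of 0.00068 under the hybridization control covariate). C1qa was the brightest of the 7, and its groups overlapped. The median difference of the macrophage markers was 0.07, with 4 of 7 above 0 and a range of -0.25 to 1.08. In these 4 lists 0 genes passed, and C1qa was the only one with an unadjusted p under 0.05. The part that beta, adipocyte, mural and acinar cell markers have in the result for Cox6a2 was not tested.

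The genes whose signal followed that of Cox6a2 most closely over the 6 arrays were sought among the 14593 other genes above the unspiked range in at least 1 group. The 5 with the highest Pearson r were Ctf1, the cytokine cardiotrophin (0.998), Gm10037 (0.995), 4833438C02Rik (0.993), Shisa2 (0.991) and Cpm, a membrane carboxypeptidase (0.990). All of them lay lower in every Tead1KO array than in any Flox array, as the choice by likeness to Cox6a2 favours. Their differences ran from -0.31 for 4833438C02Rik to -1.18 for Cpm, with -1.15 for Ctf1, -0.32 for Gm10037 and -0.99 for Shisa2 (-0.60 with its probe sets averaged). Ctf1 read 8.05, 8.28 and 8.07 in Tead1KO and 9.06, 9.57 and 9.21 in Flox, so it shared with Cox6a2 the highest array of each group. These values rest on 6 arrays in 2 groups and are a description.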

How the data were processed

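Transcripts of islets were measured with 1 array per sample, 3 Tead1KO and 3 Flox. The authors deposited a log2 signal for each probe set. The submitters' processing notes name Affymetrix Expression Console. How it corrected background, normalized arrays and summarised probes is not stated there, and no scanner files were used. The scale was read from the values (2.75 to 15.7). Of 45101 probe sets, 64 controls were left out. Of the others, 34945 had 1 gene symbol in the platform annotation, 932 several and 9160 were unnamed here.

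Values were used as deposited, with no filter on dim signals. Comparisons (two-sided) used limma 3.58.1 in R 4.3.3 (lmFit, eBayes with trend=TRUE, no covariate, Benjamini-Hochberg adjustment), over 45037 probe sets for the members' differences and SE, and over 18193 genes (brightest single-symbol probe set) for all lists. A gene passed at an adjusted p under 0.05. All differences are Tead1KO minus Flox. The number of arrays limits the precision. The procedure was tested on simulated data with known changes. Their noise was independent between genes, with no shift shared by a whole array. That test therefore does not cover arrays that stand apart as a whole, such as Tead1KO replicate 3.

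The members, the 18 gene lists and the alternatives were chosen with earlier results of these data known. Named were all members, up to 3 genes of a list with the smallest p (outside the other cytochrome oxidase subunits only where the unadjusted p was under 0.05) and the 5 genes most like Cox6a2. Some further list genes were named to describe the sum of a list or its background. The promoter motifs were chosen after the values were seen. Alternatives were quantile normalization, median centring, no trend, a robust prior, omission of dim or _x_at and _s_at probe sets, averaged probe sets, a replicate block, the hybridization controls as a covariate, an adjusted p under 0.1, and each array left out in turn.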

Additional observations from a re-analysis of the deposited data

How the results depend on the processing

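Over the alternatives the difference of Cox6a2 ranged from -1.90 to -1.50 and that of Cox6a2 minus Cox6a1 from -1.64 to -1.28. Since Cox6a2 drew attention to the family, this range is no independent support. The counts depended on the processing. Genes that passed numbered 94 as reported, 151 with quantile normalization, 58 with median centring and 242 with a hybridization control covariate, and 12 to 303 when single arrays were left out. Probe sets that passed numbered 81 as reported, and 143, 42 and 268 under the same 3 alternatives, and 4 to 239 when single arrays were left out. Of the genes in the 18 lists 0 passed as reported, and those that passed otherwise were Ckb, Pparg, Ucn3, Nkx6-1, Slc2a2, Neb, C1qa and Myh11. The number was 5 with quantile normalization, 7 with that covariate, 1 without dim probe sets, 3 at an adjusted p under 0.1 and 0 to 5 when single arrays were left out, and under these alternatives 0 of the 72 respiratory chain genes passed at an adjusted p under 0.05. Cox7a1 minus Cox7a2, which lies at background, changed by -0.16 with quantile normalization and had no value without dim probe sets. Without _x_at and _s_at probe sets, Cox8c turned to -0.17 and Acta2 to 0.15, each read by another probe set. Cox5a turned to 0.11 with the covariate and ranged from -0.42 to 0.062 when single arrays were left out (0.062 without Tead1KO replicate 3). The cause of the other changes was not tested. Replicate numbers are shared by the groups, but the deviations of same-numbered arrays correlated at 0.06, 0.30 and -0.17, and not every array correlated best with its own number, so the numbers were not taken as pairs. With the replicate number as a block 97 genes, 96 probe sets and 0 list genes passed, and the differences of Cox6a2 (-1.71) and of the pairs stayed as they were. Signals within the unspiked control range, as for Cox7a1, cannot show a decrease.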

Other observations

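Other genes of energy metabolism with a muscle-type form were measured beside the cytochrome oxidase isoforms. Of 10 such genes 0 passed in the limma fit (1 at an unadjusted p under 0.05), and their median difference was 0.00. That gene was Fabp3, a fatty acid carrier of heart and skeletal muscle, which averaged 7.47 ± 0.17 in Tead1KO and 8.13 ± 0.11 in Flox (SD, n = 3 each, difference -0.66, adjusted p = 0.227). Its 3 Tead1KO arrays lay below the 3 Flox arrays, but with its probe sets averaged the difference was -0.29 (adjusted p = 0.699). Of 8 ubiquitous counterparts 0 passed (1 at an unadjusted p under 0.05). Ckb, the brain-type creatine kinase, averaged 11.35 ± 0.45 in Tead1KO and 10.32 ± 0.13 in Flox (difference 1.03, adjusted p = 0.158), with every Tead1KO array above every Flox array. It passed with quantile normalization (adjusted p = 0.0096), with the hybridization control covariate (0.0026) and without Tead1KO replicate 3 (0.0100). It did not pass with median centring (adjusted p = 0.398) or without Tead1KO replicate 1 (0.663).

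Of 22 regulators of mitochondrial gene expression 0 passed (2 at an unadjusted p under 0.05). Ppargc1a, a coactivator of mitochondrial biogenesis, differed by 0.66 (SE 0.20, adjusted p = 0.354), reading 6.53 to 6.97 in Tead1KO and 5.90 to 6.40 in Flox. Ppard, a nuclear receptor that acts on fatty acid use, differed by 0.48 (adjusted p = 0.588). Of 15 genes of the hypoxia response, read because Cox4i2 is known to respond to low oxygen, 0 passed (2 at an unadjusted p under 0.05). Their median was -0.06. These were Pdk1, a kinase that restrains pyruvate dehydrogenase (0.55, adjusted p = 0.324, and 0.21 with its probe sets averaged), and Adm, a vasodilator peptide (0.53, adjusted p = 0.449) that lay within background in both groups and differed by 0.16 without _x_at and _s_at probe sets.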
